A study of Mus musculus with 18 samples.

Results

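Metallothioneins and the proteins that move copper and iron were examined in kidney cortex RNA of mice challenged with anti-glomerular basement membrane (anti-GBM) antibodies. The set holds 10 genes, Mt1, Mt2, Slc30a1, Atox1, Cp, Slc40a1, Tfrc, Fth1, Ftl1, and Hmox1, chosen by name from 34509 gene symbols. Every probe of such a symbol was read, and rows of the other table, which carries no symbols, were found through the shared key or accession of the transcript. That gave 14 of 46643 probes in the table of B6 and NZW mice and 9 of 46147 rows in the table of BALB/C, DBA1, and 129/svj mice. The 15 mice were 2 months old, 3 of each strain, and all had received the antibodies. No unchallenged mouse was among them, so a strain difference present before the challenge and a difference in the response are measured together. In the study's terms, BALB/C and B6 resist the nephritis that these antibodies cause, whereas NZW, DBA1, and 129/svj are sensitive to it. The labels give neither the sex of the mice nor the time between challenge and sampling. The RNA was read on 18 Illumina BeadChip arrays, which report the mean signal of many beads per probe, and the 3 strains BALB/C, DBA1, and 129/svj each had a second array of mouse 1, which was averaged with its first.

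Metallothioneins are small cysteine-rich proteins that bind zinc and copper, and their genes are switched on by metals through the factor MTF1, as well as by glucocorticoids and inflammatory signals. Copper that enters a cell is handed by chaperones to its users, and the copper-dependent oxidase ceruloplasmin helps to load iron onto transferrin. Iron is taken up through the transferrin receptor, stored in ferritin, released from haem by haem oxygenase, and exported by ferroportin. In the kidney, proximal tubule cells reabsorb filtered metal-protein complexes and are rich in metallothionein and ferritin.

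Mt1 and Mt2 lie 5315 bases apart on chromosome 8 and moved together in these mice, so the 250 bases before each start in the RefSeq table (build GRCm38.p6) are shown. Capitals mark the core of the metal response element to which MTF1 binds, searched as TGCACNC and TGCGCNC on both strands, and the marked stretches do not overlap.
Mt2, chr8:94172368-94172617, plus strand: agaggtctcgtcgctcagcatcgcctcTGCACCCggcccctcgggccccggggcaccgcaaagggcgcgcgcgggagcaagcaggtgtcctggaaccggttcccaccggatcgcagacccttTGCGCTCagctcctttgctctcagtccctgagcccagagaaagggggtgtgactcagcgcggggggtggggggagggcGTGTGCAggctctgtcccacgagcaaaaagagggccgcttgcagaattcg
Mt1, chr8:94178839-94179088, plus strand: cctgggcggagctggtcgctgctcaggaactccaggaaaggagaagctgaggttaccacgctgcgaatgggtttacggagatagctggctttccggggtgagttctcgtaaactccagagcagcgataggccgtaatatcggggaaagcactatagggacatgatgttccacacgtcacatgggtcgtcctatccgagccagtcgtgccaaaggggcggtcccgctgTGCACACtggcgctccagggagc
Mt2 held 3 cores in this window and Mt1 held 1. Among 32851 promoter windows of this length, 21.4% held at least 1 core and 1.26% held at least 3. With the next 50 bases after the start, Mt1 held 3 cores and Mt2 held 4, and of all such windows of 300 bases 1.97% held at least 3 and 0.517% at least 4. Of the other members with an entry, Slc30a1 held 1 core before its start, Tfrc held 2 in 1 of its 2 windows, and Atox1, Fth1, Ftl1, and Cp held 0. The Mt1 window reaches into the gene, as RefSeq also holds an earlier start at 94178883. So does the Slc30a1 window, with an earlier start at 191906697. The core found in each of these windows lies after that earlier start. A match is a stretch of letters and not a measured binding site. The arrays' own probe sequences were not used here, so whether the strains differ in sequence under a probe was not tested.

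The signals were corrected for background, quantile normalized, and taken to log2, so a difference of 1 is a doubling of the corrected signal. Probes of both tables that share a search key, the identifier of the transcript for which the probe was designed, were joined (19886 pairs), and the pairs of Mt1 and Atox1 were added by accession. For Mt1 and Atox1 the probe itself may therefore differ between the tables, and their levels are compared within a table only. Each strain lies in 1 table only, so the table is a batch that cannot be told apart from the strains in it. The difference of resistant and sensitive strains was therefore taken within each table (BALB/C minus the average of 129/svj and DBA1, as well as B6 minus NZW) and then averaged. Joined probes detected in at least 3 mice (6898) entered a limma fit with 1 coefficient per strain, and a probe was called at a Benjamini-Hochberg adjusted p below 0.05. Mt1, Mt2, Atox1, Ftl1, Slc40a1, and 1 Cp probe (ILMN_1232202) passed, and a second Cp probe (ILMN_1259053) did not. Because Hmox1, Fth1, Tfrc, Slc30a1, and the other Cp probes were not joined, each table was also fitted alone, over 16766 probes for B6 and NZW and 15818 for BALB/C, DBA1, and 129/svj.

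The arrays had median signals of 81.1 to 89.8 in the table of B6 and NZW and 118 to 152 in the other, with 30.5% to 36.4% of probes detected. Slc34a1, the phosphate transporter of the proximal tubule, was bright, at a log2 signal of 13.59 to 14.46 in every mouse. Other kidney probes were dimmer, such as Nphs1, a podocyte gene, at 5.99 to 7.31. Alb, a liver gene, stayed between 4.57 and 4.88 in the 6 B6 and NZW mice. Other listed liver genes were detected: of 5 probes, 3 were detected in every B6 mouse and 2 in every NZW mouse. Ttr differed by -0.90 (B6 minus NZW, limma adjusted p = 0.0045) and Serpina1a by 1.18 (limma adjusted p = 0.0073). Over the tested joined probes, mouse 3 of DBA1 and mouse 3 of 129/svj had the lowest mean correlation with the other mice of their strain, 0.9635 and 0.9685, against 0.9727 to 0.9927 in the other 13 mice. Values without these mice are given beside the main results of the comparisons that hold them.

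Across both tables, 1 of the 6 tested members differed between resistant and sensitive strains. Atox1 was higher in the resistant strains, and Mt1 and Mt2 lay higher there without passing the test. The adjusted p-values rest on the spread between mice of a strain, not on that between strains of the same outcome. With strain as a random block, Atox1 was not called. Of all 6898 probes, 12% were called, so a count of 1 in 6 is near the background. The study itself had picked Mt1, Mt2, and Atox1 from these arrays, so their direction is not independent evidence. The median difference was 0.31 over the 6 members and -0.01 over all tested probes.

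**Figure D1:**
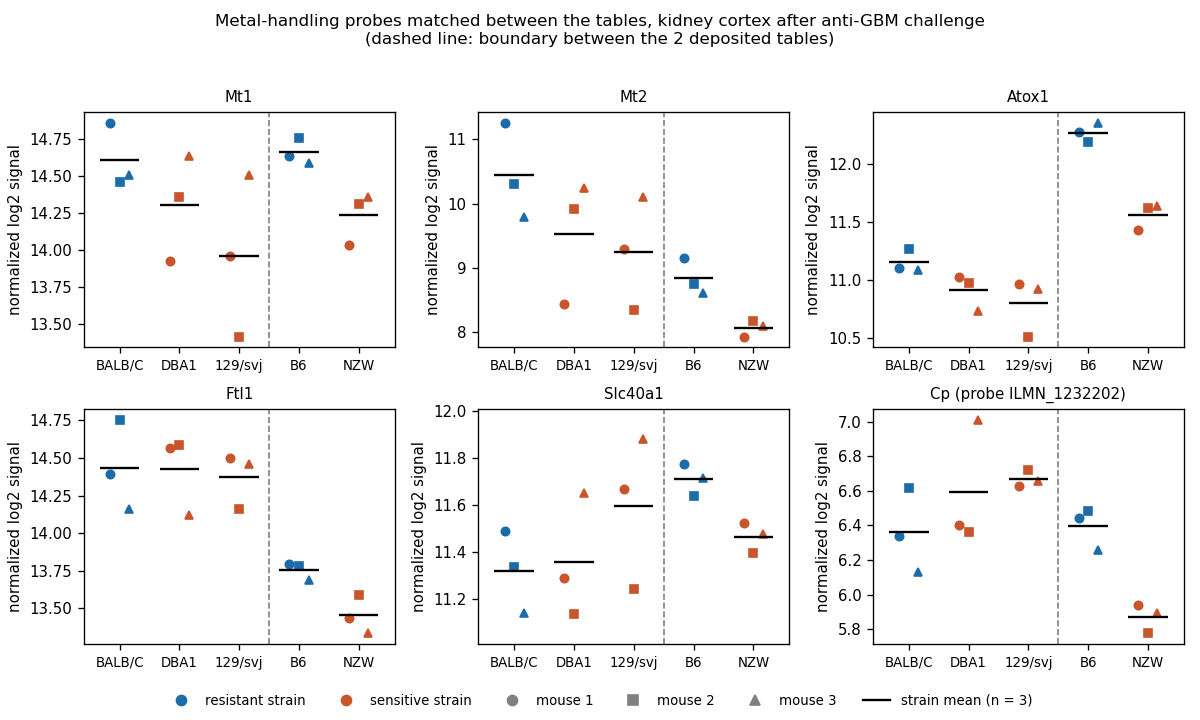
Normalized log2 signal (vertical axes, each panel with its own range) of the 6 tested probes joined across the tables, for the 3 mice of each strain (points, with the strain mean as a bar). Resistant strains are blue and sensitive strains are orange, and the dashed line separates the tables. Atox1 separates the resistant from the sensitive mice within each table, while the Mt1 and Mt2 values of BALB/C overlap those of DBA1 or 129/svj.

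Mt1, a metallothionein made in most tissues, had log2 signals of 14.86, 14.46, and 14.50 in BALB/C mice 1 to 3. The DBA1 mice read 13.92, 14.36, and 14.63. The 129/svj mice read 13.96, 13.42, and 14.50. Mouse 3 of each of these sensitive strains thus reached into the BALB/C range, while their other mice lay below it. B6 mice read 14.63, 14.75, and 14.59, and NZW mice read 14.04, 14.31, and 14.36, with no overlap. Resistant strains lay 0.45 ± 0.16 (SE) above sensitive strains, a fold of 1.36 (limma adjusted p = 0.080, 95% interval 0.12 to 0.78).

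Mt2, the neighbouring gene of the same protein family, varied more between mice of a strain. BALB/C mice read 11.26, 10.30, and 9.80. DBA1 mice read 8.44, 9.92, and 10.24, and 129/svj mice read 9.30, 8.35, and 10.11. Mouse 2 and mouse 3 of DBA1 and mouse 3 of 129/svj lay inside the BALB/C range, and the rest lay below it. B6 mice read 9.16, 8.75, and 8.61, all above the NZW mice at 7.93, 8.17, and 8.11. The difference of resistant and sensitive strains was 0.91 ± 0.31 (SE), a fold of 1.88 (limma adjusted p = 0.076). Within the tables, BALB/C minus the mean of the others was 1.06 for Mt2 (limma adjusted p = 0.13) and 0.47 for Mt1 (limma adjusted p = 0.18). The pooled standard deviation of Mt2 within strains was 0.68, more than that of 99.06% of the tested probes, whose median was 0.22. The pooled standard deviation of Mt1 was 0.32, at the percentile 81.37. Array noise was smaller, as the second arrays of mouse 1 differed from the first by 0.21 or less for Mt2 and 0.09 or less for Mt1. Quantile normalization sets a value by its rank on the array, so small differences can read as 0. Mt1 did so in the arrays of DBA1 mouse 1, at deposited signals of 12305 and 12138.

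Without mouse 3 of both DBA1 and 129/svj, an alternative chosen after the data were seen, Mt2 differed by 1.11 (limma adjusted p = 0.011) and Mt1 by 0.56 (limma adjusted p = 0.0041), and 3 of 6 members were called. BALB/C minus the remaining mice of the others was then 1.46 for Mt2 (limma adjusted p = 0.017) and 0.69 for Mt1 (limma adjusted p = 0.010). Leaving out mouse 3 of 129/svj alone or mouse 3 of DBA1 alone also gave 3, and leaving out mouse 3 of BALB/C gave 2, the added call being Mt2. Over all 15 single omissions, the limma adjusted p ran from 0.016 to 0.18 for Mt1 and from 0.031 to 0.18 for Mt2. Mouse 3 of DBA1 and of 129/svj had the highest Mt1 and Mt2 readings of their sensitive strains, so leaving them out raised both differences. Mouse 3 of DBA1 and of 129/svj also had the highest leukocyte marker readings of their strains. C1qa, a macrophage gene, read 7.61, 7.67, and 8.58 in DBA1 mice 1 to 3 and 7.16, 6.23, and 8.33 in 129/svj mice 1 to 3, against 6.63 to 7.16 in BALB/C. S100a8, a neutrophil gene, read 8.34, 4.81, and 10.24 in the 129/svj mice and 7.49, 7.78, and 8.21 in the DBA1 mice. Of the 8 macrophage genes listed, 2 could be joined, and Marco was detected in no mouse. The summed macrophage level on the log2 scale was 7.86 to 8.70 in DBA1, 6.78 to 8.49 in 129/svj, 7.01 to 7.47 in BALB/C, 8.50 to 9.03 in B6, and 8.16 to 8.43 in NZW. The part of these cells in the metallothionein signal was not tested. In whole cortex, fewer cells of a type and less RNA per cell cannot be told apart.

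Over all 15 mice, with each value centred on the mean of its table, Mt2 was the probe most like Mt1 (Pearson r = 0.92, Spearman rho = 0.87, n = 15). The closest probes of other genes were Wbp5 (r = 0.91) and Renbp (r = 0.87). Atox1 stood at rank 162 of the tested probes with r = 0.61, and Slc40a1 (0.34), Ftl1 (0.24), and Cp (0.13) were less alike. Mt1 and Mt2 were correlated at r = 0.93 over the 9 mice of BALB/C, DBA1, and 129/svj and at 0.87 over the 6 mice of B6 and NZW. With strain means removed, r was 0.93 in the former 9 mice and 0.33 in the latter 6. Without the 2 mice farthest from the median of Mt1, 129/svj mouse 2 and NZW mouse 1, r was 0.91. These values are descriptions, since mice of a strain share genotype and mice of a table share processing.

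**Figure D2:**
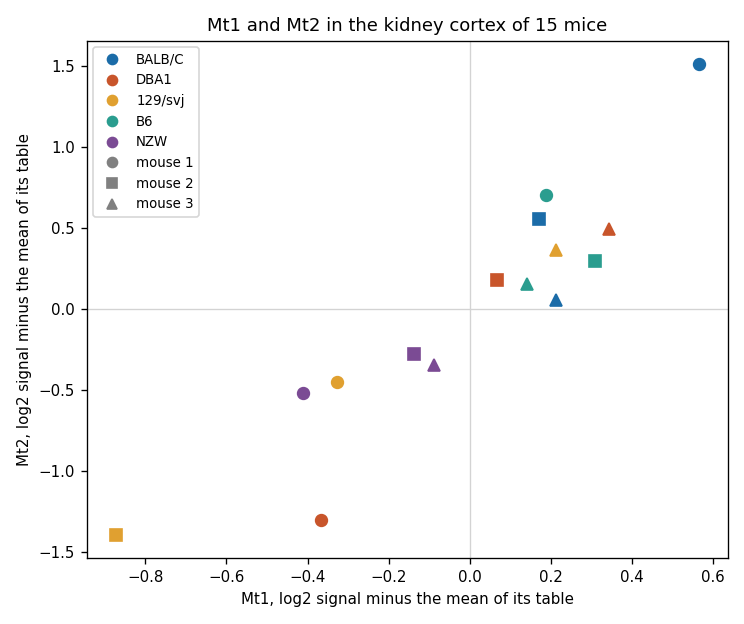
Mt1 (horizontal) and Mt2 (vertical) log2 signals of the 15 mice, each minus the mean of its table. Colours give the strain and shapes the mouse. The points rise together (r = 0.92), from mouse 2 of 129/svj at the lower left to mouse 1 of BALB/C at the upper right.

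Within the table of B6 and NZW, 6 of 13 tested probes differed, and 5 of them were higher in the resistant B6. Mt2, Atox1, 1 dim Cp probe (ILMN_1232202), Hmox1, and Mt1 rose in B6, and 1 of the Slc30a1 probes fell. A brighter Cp probe (ILMN_2520239) was not called in this table. Of all 16766 probes tested there, 18.8% were called, 9.24% higher and 9.6% lower in B6, so the members' share was above the background, which is a description without a test. The called Mt1, Mt2, and Atox1 had been picked by the study from these same arrays, so that share is not independent evidence. The members' median difference was 0.25, against -0.04 over all probes. With each array scaled to its 75th percentile instead, the median of all probes moved to -0.13 and the split of all called probes from 1549 higher and 1610 lower to 1352 and 2269. Under that scaling 4 members were called, with Mt1 at 0.23 (limma adjusted p = 0.27) and Hmox1 at 0.49 (limma adjusted p = 0.071).

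**Figure D3:**
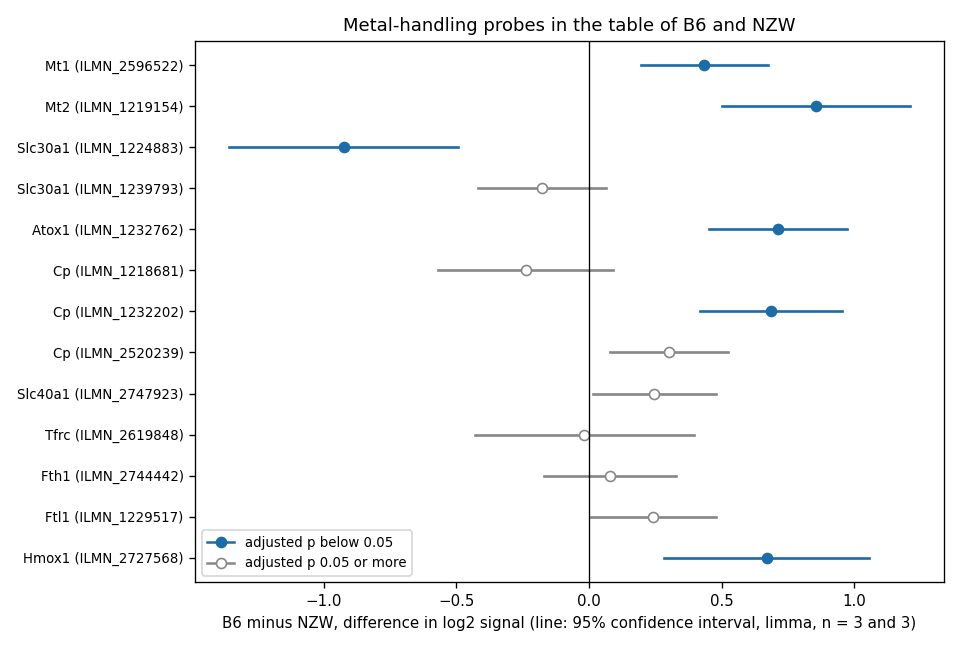
Difference in log2 signal of B6 minus NZW (horizontal axis) for the 13 tested probes, in the fit of their own table (3 mice per strain), with 95% confidence intervals as lines. Filled blue points passed an adjusted p of 0.05. Mt1, Mt2, Atox1, Hmox1, and a Cp probe (ILMN_1232202) lie right of 0, and a Slc30a1 probe (ILMN_1224883) lies left of it.

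In this table normalized alone, Mt2 read 9.46, 9.05, and 8.90 in B6 and 8.16, 8.38, and 8.30 in NZW, so the groups did not overlap. The difference was 0.86 ± 0.15 (SE), a fold of 1.81 (limma adjusted p = 0.0056), and it was not called by the methods' t-test after Benjamini-Hochberg (adjusted p = 0.064). Mt1 read 15.03, 15.01, and 14.95 in B6 and 14.44, 14.60, and 14.64 in NZW, also without overlap. It differed by 0.44 ± 0.11 (SE), a fold of 1.35 (limma adjusted p = 0.022). The Mt1 call was lost when mouse 1, 2, or 3 of B6 or mouse 1 of NZW was left out, with adjusted p between 0.032 and 0.090 over the 6 omissions. In the fit of all 15 mice, where the wide spread of the other strains enters the error, B6 minus NZW was 0.42 for Mt1 (limma adjusted p = 0.34) and 0.77 for Mt2 (limma adjusted p = 0.40). The pooled standard deviation within strains was 0.22 for Mt2 and 0.08 for Mt1 in the B6 and NZW table normalized alone. It was 0.68 and 0.32 over all strains on the joint scale. On that joint scale, the standard deviations in B6 and NZW were 0.28 and 0.12 for Mt2 and 0.09 and 0.17 for Mt1.

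Slc30a1 encodes the zinc exporter ZnT1 of the plasma membrane, another MTF1 target. Its probes disagreed in size. Probe ILMN_1224883 read 7.12, 6.90, and 7.17 in B6 and 8.35, 8.03, and 7.58 in NZW, with no overlap, and differed by -0.93 ± 0.19 (SE, B6 minus NZW, limma adjusted p = 0.010), a fold of 1.90 in favour of NZW. The methods' t-test after Benjamini-Hochberg did not call it (adjusted p = 0.097). Probe ILMN_1239793 read 11.53, 11.47, and 11.67 in B6 and 11.69, 11.79, and 11.73 in NZW, and its difference of -0.18 did not pass (limma adjusted p = 0.29, 95% interval -0.42 to 0.06). Which of these corresponds to the Slc30a1 row of the other table is not known, as they share its key. That row read 10.65, 10.50, and 10.59 in BALB/C, 10.31, 10.38, and 10.73 in DBA1, and 10.45, 10.71, and 10.63 in 129/svj, so the strains were interleaved. BALB/C minus the mean of the others was 0.05 ± 0.13 (SE, limma adjusted p = 0.90).

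Atox1 encodes the chaperone that carries copper to the ATPases of the secretory pathway. Normalized over all mice, it read 12.27, 12.18, and 12.35 in B6 against 11.43, 11.62, and 11.63 in NZW. It read 11.11, 11.27, and 11.09 in BALB/C against 11.03, 10.97, and 10.73 in DBA1 and 10.96, 10.51, and 10.92 in 129/svj. Every resistant mouse was thus above every sensitive mouse of its table, by a narrow margin in the BALB/C table. The mean within-table difference was 0.51 ± 0.09 (SE), a fold of 1.42 (limma adjusted p = 0.0018), and it was called in each fit that left out 1 mouse (adjusted p between 0.0014 and 0.0088). B6 exceeded NZW by 0.71 (limma adjusted p = 0.0033), a fold of 1.64, where 9.86% of all probes were called. With 75th percentile scaling that difference was 0.49 (limma adjusted p = 0.074) on the joint scale and 0.52 (limma adjusted p = 0.026) in the table of B6 and NZW alone. BALB/C exceeded the mean of DBA1 and 129/svj by 0.30 (limma adjusted p = 0.15), a fold of 1.23, where 9.64% of all probes but 0 of the 6 members were called and 3 members had an unadjusted p below 0.05. The difference between these differences was -0.41 (limma adjusted p = 0.21, 95% interval -0.81 to -0.01). With strain as a random block, Atox1 differed by 0.48 (limma adjusted p = 0.068). The methods' t-test gave 0.62 (adjusted p = 0.46 after Benjamini-Hochberg), but it set all resistant against all sensitive mice. The difference between the tables thus enters both its effect and its error, and it is not a test of the within-table difference.

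Cp encodes ceruloplasmin, the copper ferroxidase. Its probes went different ways in the tables and did not form a single picture. The joined probe (ILMN_1232202) read 6.44, 6.48, and 6.26 in B6 and 5.94, 5.77, and 5.89 in NZW on the joint scale, with no overlap. This probe was dim in every strain. Its deposited signals were 112 to 168 in B6 and NZW, where array medians were 81.1 to 89.8. They were 169 to 225 in the other strains, where array medians were 118 to 152. The BALB/C mice read 6.34, 6.62, and 6.13, the DBA1 mice 6.40, 6.36, and 7.01, and the 129/svj mice 6.63, 6.72, and 6.66. B6 minus NZW was 0.52 on the joint scale (limma adjusted p = 0.069) and 0.69 in their own table (limma adjusted p = 0.0041), and BALB/C minus the mean of the others was -0.27 (limma adjusted p = 0.31). These differed from each other by -0.79 (limma adjusted p = 0.035), with 10.3% of all probes called in that comparison. That call was lost whenever any mouse of B6, any mouse of NZW, or mouse 1 or 3 of BALB/C was left out. Without mouse 3 of DBA1 and of 129/svj the Cp differences on the joint scale were -0.17 for BALB/C minus the others (limma adjusted p = 0.45) and 0.53 for B6 minus NZW (limma adjusted p = 0.014), and they differed by -0.69 (limma adjusted p = 0.017).

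Another Cp row (101580398) read 7.26, 7.23, and 6.95 in BALB/C, below all of the DBA1 mice at 8.14, 8.10, and 8.81 and all of the 129/svj mice at 7.92, 7.75, and 8.46. The difference, BALB/C minus the others, was -1.05 ± 0.21 (SE, limma adjusted p = 0.015), 2.07-fold lower in BALB/C, in a comparison that called 5.99% of all 15818 probes and 1 of 8 members. Against DBA1 alone the difference was -1.20 (limma adjusted p = 0.016; 5.75% of all probes called), and against 129/svj alone -0.89 (limma adjusted p = 0.070; 4.82% called). The first of these calls was lost when any BALB/C mouse was left out (adjusted p 0.051 to 0.079). Without mouse 3 of DBA1 and of 129/svj, the difference of Cp 101580398, BALB/C minus mean of DBA1 and 129/svj over all probes of their table, was -0.83 (limma adjusted p = 0.0049), and Atox1 differed by 0.50 between resistant and sensitive strains (limma adjusted p = 0.0014). A B6 and NZW probe with the same key (ILMN_2520239) read 8.96, 8.92, and 8.91 in B6 and 8.64, 8.67, and 8.57 in NZW, a difference of 0.30 in the other direction (limma adjusted p = 0.065), and the other probe with that key (ILMN_1218681), at 5.00 to 5.60, differed by -0.24 (limma adjusted p = 0.30). The untested probe (ILMN_1259053) was detected in mouse 3 of DBA1 and mouse 3 of 129/svj, at 6.80 and 6.64 on the joint scale, against 4.71 to 5.22 in the other 13 mice.

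**Figure D4:**
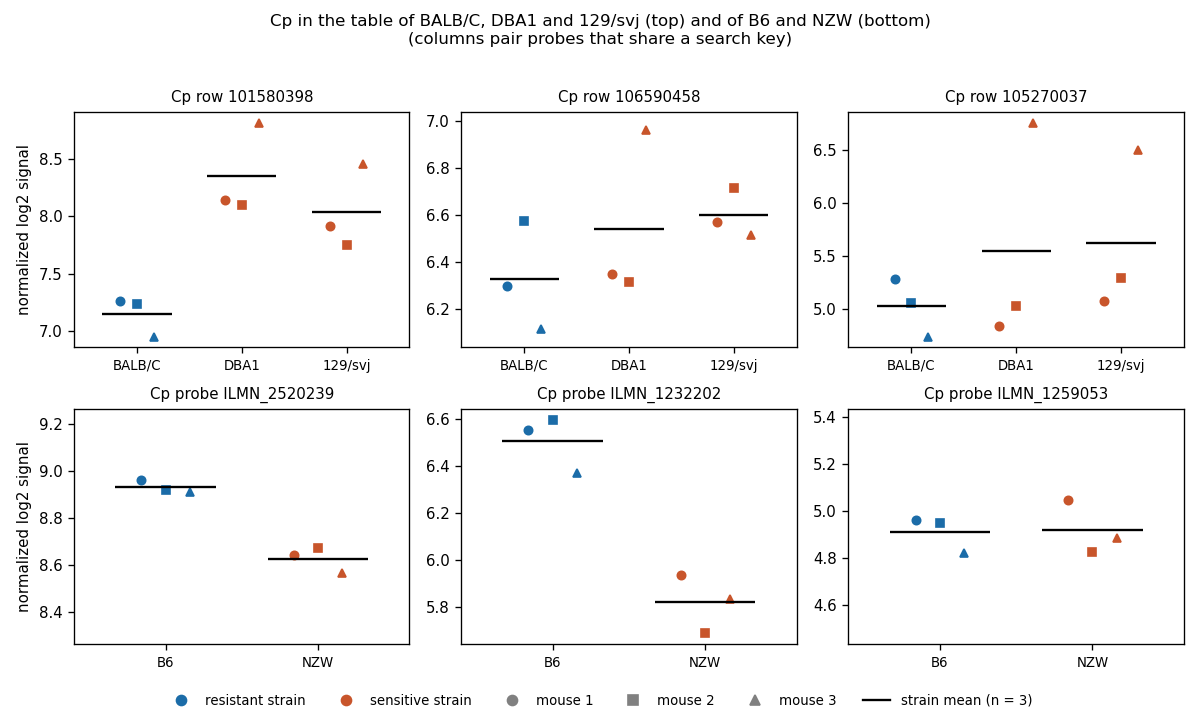
Normalized log2 signal (vertical axes) of Cp rows in BALB/C, DBA1, and 129/svj (top) and of Cp probes in B6 and NZW (bottom), each table normalized alone, with points for mice and bars for strain means. Probes in a column share a search key. BALB/C lies below DBA1 and 129/svj at the left, and mouse 3 of DBA1 and of 129/svj stands above the rest at the right.

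Ferritin, the iron store, is built of heavy and light chains encoded by Fth1 and Ftl1. Fth1 was read in B6 and NZW only, at 14.99, 15.14, and 14.96 in B6 and 14.94, 14.86, and 15.06 in NZW. The groups overlapped, and the difference was 0.08 ± 0.11 (SE, limma adjusted p = 0.67, 95% interval -0.17 to 0.33), or -0.07 with 75th percentile scaling. Ftl1 read between 14.12 and 14.75 in the 9 mice of BALB/C, DBA1, and 129/svj with the strains interleaved. B6 mice read 13.80, 13.78, and 13.69 and NZW mice 13.44, 13.59, and 13.33. The difference of resistant and sensitive strains was 0.17 ± 0.11 (SE, limma adjusted p = 0.41).

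Tfrc encodes the transferrin receptor that brings iron in, and Slc40a1 encodes ferroportin, the iron exporter. Tfrc read 9.23, 9.64, and 9.27 in B6 and 9.36, 9.10, and 9.73 in NZW, fully interleaved, and differed by -0.02 ± 0.18 (SE, limma adjusted p = 0.96, 95% interval -0.43 to 0.40). Slc40a1 read 11.77, 11.64, and 11.72 in B6, above the NZW mice at 11.52, 11.40, and 11.48. It read 11.49, 11.33, and 11.14 in BALB/C, 11.29, 11.14, and 11.65 in DBA1, and 11.67, 11.24, and 11.88 in 129/svj, where the strains overlapped. The mean within-table difference was 0.04 ± 0.11 (SE, limma adjusted p = 0.87), and it was -0.08 with 75th percentile scaling. B6 minus NZW in their own table was 0.25 (limma adjusted p = 0.13).

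Hmox1 encodes the inducible haem oxygenase, which opens haem and frees its iron. It read 11.44, 10.92, and 10.84 in B6 and 10.23, 10.48, and 10.48 in NZW, with every B6 mouse above every NZW mouse. The difference was 0.67 ± 0.17 (SE), a fold of 1.59 (limma adjusted p = 0.026), and the call was lost without mouse 1 of B6 (0.49, adjusted p = 0.064), mouse 1 of NZW (0.59, adjusted p = 0.081), or mouse 3 of NZW (0.71, adjusted p = 0.058). Macrophages, which are rich in Hmox1, were read through 14 probes of 8 genes. Of these, 6 were detected in each B6 mouse and 4 in each NZW mouse, while Cd163 stayed between 4.53 and 4.93. The summed macrophage signal was 11.00 to 12.10 in B6 and 10.66 to 11.13 in NZW on the log2 scale. The neutrophil sum was 10.44 to 12.77 in B6 and 11.27 to 11.67 in NZW, and the erythroid sum was 17.60 to 18.35 and 17.42 to 17.88. Of the 7 macrophage probes tested, the smallest adjusted p was that of Emr1, higher in B6 by 0.49 (limma adjusted p = 0.05, not called), followed by C1qa, by 0.50 (limma adjusted p = 0.067). The Cd68 and Lyzs probes were also higher without a call (limma adjusted p between 0.22 and 0.38). Both Csf1r probes were lower in B6, at -0.27 (limma adjusted p = 0.39) and -0.13 (limma adjusted p = 0.56). The 5 neutrophil probes differed by 0.06 to 0.60 (limma adjusted p between 0.49 and 0.97). Of 13 erythroid probes tested, 3 were called, each a Hbb-b1 probe higher in B6, by 1.19 to 3.84. The other Hbb-b1 probes differed by -0.02 to 0.56 without a call. Hba-a1 (-0.13, limma adjusted p = 0.81) and Slc4a1 (-0.35, limma adjusted p = 0.13) lay lower in B6. Alas2, at 10.87, 9.06, and 9.94 in B6 mice 1 to 3, differed by -0.03 (limma adjusted p = 0.97). Mouse 1 of B6 was thus the highest of its strain in both Alas2 and Hmox1. The part of these cells in the Hmox1 signal was not tested.

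**Figure D5:**
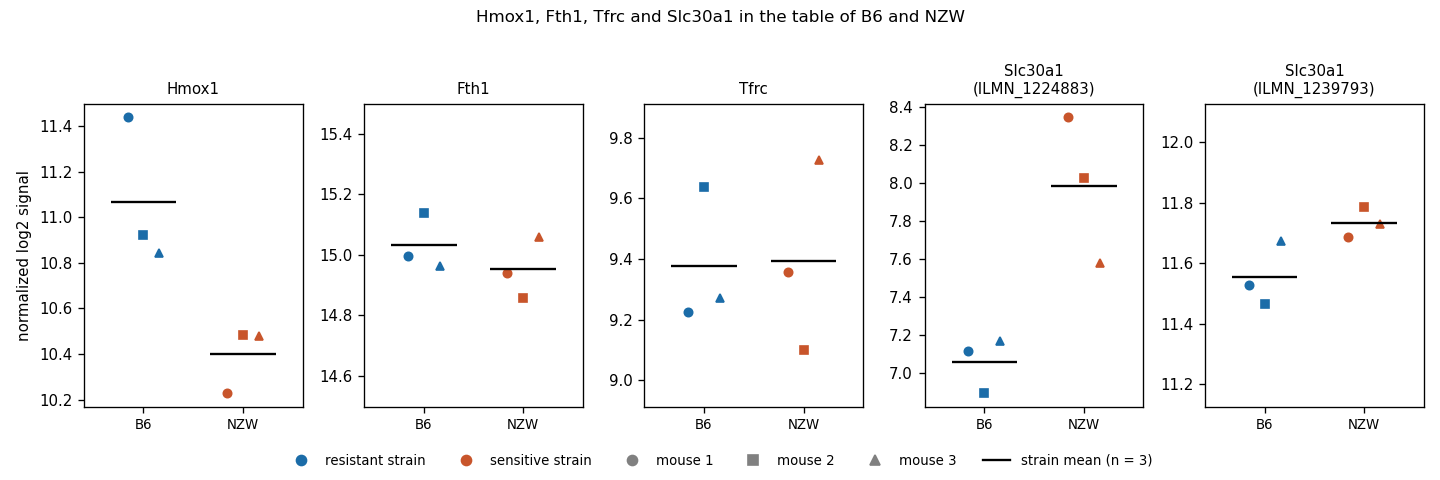
Normalized log2 signal (vertical axes, each panel with its own range) of Hmox1, Fth1, Tfrc, and the Slc30a1 probes in the 3 B6 and 3 NZW mice of their table, with points for mice and bars for strain means. Hmox1 and the Slc30a1 probe ILMN_1224883 separate the strains in opposite directions, whereas Fth1 and Tfrc values overlap.

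The wider pathways were read through 4 further lists. Between resistant and sensitive strains, 0 of 7 zinc, 1 of 9 copper, 1 of 13 iron, and 1 of 7 haem probes were called, each lower in the resistant strains, against 12% of all probes. Of the zinc probes, 2 had an unadjusted limma p below 0.05. Their median differences were -0.19, 0.02, -0.09, and -0.07, and -0.01 over all probes. The copper gene was Sod3, extracellular superoxide dismutase, which differed by -0.48 (resistant minus sensitive, limma adjusted p = 0.0070). It read 8.61 to 8.97 in B6 and 9.22 to 9.63 in NZW, and 8.54 to 8.80 in BALB/C, against 9.09 to 9.34 in DBA1 and 8.43 to 8.90 in 129/svj, which overlapped BALB/C. The iron gene was Aco1, whose product is the cytosolic aconitase that becomes iron regulatory protein when it loses its iron-sulfur cluster. Aco1 differed by -0.53 (limma adjusted p = 0.0026), with B6 at 7.62 to 7.76, NZW at 8.25 to 8.52, BALB/C at 9.17 to 9.22, DBA1 at 9.31 to 10.02, and 129/svj at 9.37 to 9.53. Every resistant mouse was below every sensitive mouse of its table. The haem gene was Blvrb, biliverdin reductase B, which acts after haem oxygenase. Blvrb differed by -0.75 (limma adjusted p = 5.9e-05), with B6 at 6.35 to 6.37, NZW at 7.14 to 7.50, BALB/C at 6.89 to 7.21, DBA1 at 7.08 to 7.46, and 129/svj at 7.96 to 8.19. BALB/C and DBA1 overlapped, and the sensitive strains differed from each other by -0.85 (DBA1 minus 129/svj, limma adjusted p = 0.0011). Without mouse 3 of DBA1 and of 129/svj the differences of resistant and sensitive strains were -0.47 for Sod3 (limma adjusted p = 0.0081), -0.59 for Aco1 (limma adjusted p = 1e-04), and -0.78 for Blvrb (limma adjusted p = 7.3e-05).

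Within the table of BALB/C, 2 of 7 zinc, 0 of 9 copper, 2 of 13 iron, and 2 of 7 haem probes were called by limma on the joint scale, against 9.64% of all probes, and 0 copper probes had an unadjusted p below 0.05. Slc39a13, a zinc importer, rose in BALB/C by 0.58 (limma adjusted p = 0.0078), and Slc39a1, another importer, fell by 0.38 (limma adjusted p = 0.031). Bach1, the haem-sensing repressor of Hmox1, rose by 0.62 (limma adjusted p = 0.048). Blvrb fell by 0.54 (limma adjusted p = 0.011). Nfs1, which provides sulfur for iron-sulfur clusters, was lower by 0.53 (ILMN_1235445, limma adjusted p = 0.035). DBA1 stood apart at 6.12 to 6.84, while BALB/C (5.28 to 5.60) and 129/svj (5.31 to 5.57) overlapped at low signals. DBA1 minus 129/svj was 1.03 (limma adjusted p = 0.0011). For B6 minus NZW this probe was at 0.29 on the joint scale (limma adjusted p = 0.39). Another Nfs1 probe (ILMN_2648867) was at -0.57 in the table of B6 and NZW alone (limma adjusted p = 0.012). A Lrp2 probe (ILMN_2708043), for the endocytic receptor megalin, rose by 0.63 in BALB/C (limma adjusted p = 0.0082) and differed by -1.13 for B6 minus NZW (limma adjusted p = 0.00021). Another Lrp2 probe (ILMN_2735522) differed by 0.19 (limma adjusted p = 0.60) and -0.09 (limma adjusted p = 0.89) in the same comparisons. Without mouse 3 of DBA1 and of 129/svj, Slc39a13, Slc39a1, Bach1, Blvrb, Nfs1, and the Lrp2 probe ILMN_2708043 were again called in BALB/C, with limma adjusted p between 0.0094 and 0.028. Aco1, at -0.38 with all mice (limma adjusted p = 0.098), was then called at -0.50 (limma adjusted p = 0.0063), and the Lrp2 probe ILMN_2735522 was at -0.02 (limma adjusted p = 0.94).

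In the B6 and NZW table alone, 4 of 22 zinc probes (2 higher in B6), 3 of 21 copper probes (1 higher), 12 of 35 iron probes (4 higher), and 2 of 22 haem probes (0 higher) were called, against 18.8% of all probes. Chosen after their values were seen, the members of these lists with the smallest adjusted p were Atp7a, the copper ATPase to which Atox1 delivers, higher in B6 by 2.00 through 1 probe (ILMN_2747430, limma adjusted p = 3.5e-05) and by 0.33 through another (ILMN_1252543, limma adjusted p = 0.23), Slc39a9, a zinc transporter, higher by 1.24 (limma adjusted p = 7e-05), Lrp2 (ILMN_2708043), at -1.16 (limma adjusted p = 0.00043), and Alad, a haem synthesis enzyme, at -0.90 (limma adjusted p = 0.00050). The iron list also held Lcn2, a siderophore-binding protein of injured tubules and neutrophils, higher in B6 by 1.80 (limma adjusted p = 0.028). Tubule injury markers moved both ways, with Havcr1 at -2.77 for B6 minus NZW (limma adjusted p = 0.013) and Spp1 higher by 0.69 (limma adjusted p = 0.034), and 5 of 5 probes of that list called.

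The strains of the second table were also set against each other. BALB/C minus DBA1 and BALB/C minus 129/svj called 0 of the 6 joined members each, with 0 and 3 at an unadjusted p below 0.05, where 9.44% and 7.48% of all probes were called. DBA1 minus 129/svj called 0 of 6, with 0 at an unadjusted p below 0.05, and 7.31% of all probes called, and in the table alone it called 0 of 8 rows, with 0 at an unadjusted p below 0.05 and 4.48% of all probes called. DBA1 minus 129/svj was 0.28 for Mt2 on the joint scale, with a 95% interval of -0.72 to 1.29, and 0.25 in the table alone, with an interval of -0.94 to 1.44.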

How the data were processed

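Kidney cortex RNA of 15 mice was extracted with Trizol and RNeasy columns with DNase I, checked on a Bioanalyser, amplified to biotin-labelled cRNA, and hybridised to Illumina mouse BeadChips read with BeadStudio, per the labels. The authors deposited 2 tables of linear probe intensity with detection p-values, and the deposited intensity was not log transformed. The deposited tables also count the beads behind each intensity and give their standard error. Both are of single arrays, and no column was of another series.

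Groups were taken from the labels. The members and lists were chosen with earlier results of these data known. Background was corrected with normexp from the detection p-values (offset 16), followed by quantile normalization and log2. The second array of mouse 1 in BALB/C, DBA1, and 129/svj was averaged with the first. Probes with a detection p of at most 0.05 in at least 3 mice were tested by limma (version 3.58.1, lmFit with moderated variances, R 4.3.3), and p-values were adjusted over all probes of a fit (Benjamini-Hochberg). Levels are relative to the other probes of an array, and quantile normalization sets all arrays to the same distribution. Nothing says that mice were sampled independently of cage or day, so p-values measure the spread between these mice. The fit of the BALB/C, DBA1, and 129/svj table alone was added after the files were seen. In simulated data for the comparison of resistant and sensitive strains (6898 probes, 200 changed by a log2 of 1), 96% of the changed probes were recovered and 3.03% of the called probes were false. The simulated strains differed only by the planted change and a shift between the tables. In the data, DBA1 minus 129/svj, both sensitive, called 7.31% of probes, so the 3.03% does not describe the real calls. The planted change was also larger than the member differences in that comparison of resistant and sensitive strains. Named genes were all members, and from each pathway list up to 6 called probes of the main comparison and up to 3 of each within-table comparison. Alternatives covered background, normalization, filter, variance model, test, blocks, repeat arrays, and leaving out each mouse. Precision is limited by 3 mice per strain, and each member probe was read from 16 to 70 beads per array. Tables were drawn up with Python 3.11.15 and pandas 2.3.3.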

Additional observations from a re-analysis of the deposited data

Results flagged for a closer look

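The Cp probe ILMN_1232202 differed between the tables in its strain contrast. BALB/C minus the mean of DBA1 and 129/svj was -0.27 and B6 minus NZW was 0.52 on the log2 scale, and the difference between them was -0.79 ± 0.22 (SE, limma adjusted p = 0.035, 95% interval -1.27 to -0.31). The probe was dim, with deposited signals of 112 to 168 in B6 and NZW and 169 to 225 in the other strains. The table and the strains compared cannot be told apart here.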

How the results depend on the processing

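Counts of called members are given in the order of the comparisons. For resistant minus sensitive strains (1 in the reported fit), the count was 0 with strain as a random block, 0 and 2 by the methods' t-test (mice of both tables pooled) after Benjamini-Hochberg and unadjusted, 3 without mouse 3 of DBA1 and 129/svj together, and 1 to 3 when 1 mouse was left out. For BALB/C minus the mean of DBA1 and 129/svj (0), it was 1 by the unadjusted t-test, 2 without both of these mice, and 0 to 1 with 1 mouse left out. For B6 minus NZW on the joint scale (1), it was 2 with tables normalized separately, 2 and 6 by the adjusted and unadjusted t-test, 2 without both mice, and 1 to 2 with 1 mouse left out. The difference between these differences (1) gave 0 without background correction, without a filter, with eBayes trend and robust, and with the replicate block, and 0 to 1 with 1 mouse left out. BALB/C minus 129/svj (0) gave 2 without both mice and 0 to 1 with 1 left out. BALB/C minus DBA1 and DBA1 minus 129/svj stayed at 0. In the table of BALB/C alone, BALB/C minus the mean of the others (1) gave 0 and 2 by the adjusted and unadjusted t-test, 2 without both mice, and 0 to 1 with 1 left out, BALB/C minus DBA1 (1) gave 0 by the adjusted t-test and 0 to 1, and BALB/C minus 129/svj (0) gave 1 by the unadjusted t-test, 2 without both mice, and 0 to 1. B6 minus NZW in their own table (6) gave 4 to 9 over 9 alternatives and 4 to 6 with 1 mouse left out. Among these, the Atox1 call of B6 minus NZW on the joint scale and the own-table calls of Mt1 and Hmox1 were lost with 75th percentile scaling, that of Hmox1 also without a filter, and those of Hmox1, Mt2, and Slc30a1 by the adjusted t-test. The cause of these changes was not tested.

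Differences that changed sign were small and not called. With 75th percentile scaling, Slc40a1 was -0.0764 (resistant minus sensitive) and Fth1 was -0.0659 (B6 minus NZW), and without both mice Ftl1 was -0.0222 (BALB/C minus the others). With 1 mouse left out, Slc40a1 ranged from -0.0003 to 0.089, Ftl1 from -0.121 to 0.172 and, in its own table, from -0.0481 to 0.2305, and Tfrc from -0.163 to 0.149. That scaling moved the median of all probes to -0.109 for B6 minus NZW on the joint scale, with 469 higher and 480 lower calls in place of 405 and 275.

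Strains share mouse numbers, but the numbers did not pair the mice: of 30 same-numbered pairs, correlations of deviations ran from -0.223 to 0.356, 4 were over 0.1, and 5 of 15 mice correlated best with their own number. With the replicate block, 1 member was called for resistant minus sensitive strains, 0 for BALB/C minus the others, 1 for B6 minus NZW, and 4 for B6 minus NZW in their own table, where Hmox1 had a limma adjusted p of 0.052 and Mt1 of 0.059. Using the first array of mouse 1 was not run for B6 and NZW alone, which had no second arrays.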
